A study of Mus musculus with 6 samples.

Results

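The CCN family of secreted matrix-associated proteins and the YAP pathway that drives some of its genes were followed across ligated mouse veins. The set holds 9 of the 16533 genes in the deposited count tables, chosen by symbol: Ccn1, Ccn2, Ccn3, Ccn4, Ccn5, Yap1, Wwtr1, Tead1 and Amotl2. All 9 were present and all 9 passed the filter on low counts. The genes were picked with their fold changes between these same libraries already known, so those fold changes are given as a description and carry no test of their own.

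The tissue was the inferior vena cava of the mouse with the thrombus inside it, taken 24 h after ligation, a model of deep vein thrombosis (DVT). Control mice were Stingf/f, in which the Sting1 gene is flanked by loxP sites and intact. The mKO mice were Stingf/f Lyzm-Cre+/-, in which Cre recombinase from the lysozyme M locus deletes the floxed gene in neutrophils, monocytes and macrophages. Every mouse of both groups carried the floxed allele and underwent the DVT model, and Cre was present in mKO only, so an effect of Cre itself and one of the deletion cannot be told apart. Each of the 3 libraries in a group was a pool of 3 thrombi with their veins, so the spread between libraries is one between pools. The sample titles call the control mice WT and the mKO mice Sting. The labels give no age and no sex.

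CCN proteins are matricellular: they are secreted into the matrix, where they bind integrins, heparan sulphate proteoglycans and growth factors and alter adhesion, migration and matrix production rather than forming structure themselves. CCN1 and CCN2 are immediate early genes and classical targets of YAP and TAZ, the coactivators encoded by Yap1 and Wwtr1. YAP and TAZ do not bind DNA themselves and act through TEAD transcription factors. The Hippo kinases phosphorylate YAP and TAZ and keep them in the cytoplasm, and stiffness, stretch and flow act on the same step, so the transcript level of Yap1 or Wwtr1 does not report how active the proteins are. In a vein these genes are expressed mainly by endothelial cells, smooth muscle cells and fibroblasts, which Lyzm-Cre does not target.

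The libraries held from 158579864 to 180068483 counts, and the smallest count of any of the 9 genes in any library was 614, so depth was not what limited these comparisons. Sting1 had 25.1, 31.4 and 27.1 CPM (counts after scaling every library to the same total) in control and 22.7, 21.4 and 28.7 CPM in mKO, and these overlapped; a count over the whole gene and tissue cannot show a deletion in myeloid cells alone. Markers of the labelled tissue were present: all 10 endothelial, 10 smooth muscle and 10 fibroblast markers were above 0 in every library. Library mKO 3 stood apart from the others. Its 9 skeletal muscle markers summed to 206.3 CPM against 3.47 to 56.6 CPM elsewhere, and its 8 sympathetic neuron markers to 7.995 CPM against 94.1 to 246.0 CPM elsewhere. Library control 2 had the highest summed smooth muscle markers, 3107 CPM where the other 5 had between 688.8 and 1513 CPM. It also had the highest share of mitochondrial counts, 14.44% against 8.555 to 11.65% elsewhere. Its share of globin counts was the lowest, 21.21% against 24.45 to 27.06% elsewhere. A fold change or list median is also given without either of these 2 libraries where that turned its sign or moved it markedly.

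Start site sequences are shown for Ccn1, Amotl2 and Yap1, whose mKO libraries all lay below the controls, and for Wwtr1, whose groups overlapped. Promoter windows were found for 4 of the 9 genes in RefSeq sequences of GRCm38.p6, an older build than the GRCm39 named for the counts. No window was matched for Ccn2, Ccn3, Ccn4, Ccn5 or Tead1. Each line gives the 250 bases upstream of a transcription start on the strand of the gene, with the core motif of TEAD binding, GGAATG or its reverse complement CATTCC, in capitals.
Ccn1: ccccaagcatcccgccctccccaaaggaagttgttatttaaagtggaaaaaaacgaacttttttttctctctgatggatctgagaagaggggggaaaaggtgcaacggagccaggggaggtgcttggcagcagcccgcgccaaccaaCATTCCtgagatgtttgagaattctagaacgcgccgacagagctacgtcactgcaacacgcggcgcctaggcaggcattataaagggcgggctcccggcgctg
Amotl2: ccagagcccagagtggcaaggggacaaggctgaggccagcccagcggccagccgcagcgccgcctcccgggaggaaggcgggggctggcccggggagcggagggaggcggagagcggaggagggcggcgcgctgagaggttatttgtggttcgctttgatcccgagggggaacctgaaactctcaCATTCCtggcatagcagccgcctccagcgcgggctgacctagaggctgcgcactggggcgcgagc
Yap1: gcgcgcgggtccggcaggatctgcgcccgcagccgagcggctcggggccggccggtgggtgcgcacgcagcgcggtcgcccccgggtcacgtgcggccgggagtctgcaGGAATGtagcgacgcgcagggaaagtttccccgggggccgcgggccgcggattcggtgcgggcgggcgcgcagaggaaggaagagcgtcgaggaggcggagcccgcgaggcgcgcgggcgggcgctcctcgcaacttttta
Wwtr1: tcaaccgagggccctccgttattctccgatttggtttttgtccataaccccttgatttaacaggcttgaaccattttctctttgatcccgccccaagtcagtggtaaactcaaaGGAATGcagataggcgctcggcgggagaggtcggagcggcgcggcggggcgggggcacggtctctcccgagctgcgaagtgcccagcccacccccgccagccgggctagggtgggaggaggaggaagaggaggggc
The windows lie at chr3:145649986-145650235 for Ccn1, chr9:102717554-102717803 for Amotl2, chr9:8004597-8004846 for Yap1 and chr3:57575911-57576160 for Wwtr1. Each of the 4 windows holds 1 copy of the TEAD core. It ends 98 bases before the start in Ccn1, 60 in Amotl2, 136 in Yap1 and 131 in Wwtr1, which also has a second listed start with the same copy. Of all 32851 mouse windows of 250 bases, 12.6% hold the core on either strand. The AP-1 motif TGANTCA, found in 6.75% of all windows, and the CArG box of serum response factor, found in 1.47%, had no match in these 4. A match is a stretch of letters and not evidence of binding, and the copy is present both in the 3 genes with separate groups and in Wwtr1.

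Levels were compared between genes as CPM per kb of annotated exon, with the exon length of each gene taken from an annotation of GRCm38. Ccn2 and Ccn1 were far above the rest in both groups. Ccn2 had 226.9 ± 73.1 CPM per kb in control and 107.7 ± 21.1 in mKO, and Ccn1 had 162.7 ± 19.6 and 100.9 ± 22.9 (SD, n = 3 each). Ccn2 exceeded Ccn1 in each of the 6 libraries, but the 2 genes' ranges overlapped within each group. In control the next gene, Ccn3, lay 13.7-fold below Ccn1, and in mKO the next, Wwtr1, lay 11.5-fold below it, with no overlap. Ccn3, Wwtr1 and Ccn5 followed in control at 11.8 ± 7.98, 8.89 ± 1.36 and 8.85 ± 4.61 CPM per kb (SD, n = 3), and their ranges overlapped. Yap1 and Amotl2 came next at 4.35 ± 0.725 and 4.31 ± 0.543 CPM per kb (SD, n = 3) and also overlapped. Tead1 and Ccn4 were lowest, at 2.11 ± 0.376 and 1.71 ± 0.531 CPM per kb in control (SD, n = 3), and they exchanged places in mKO, where Ccn4 had 1.80 ± 0.532 and Tead1 1.39 ± 0.287 CPM per kb (SD, n = 3).

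**Figure D1:**
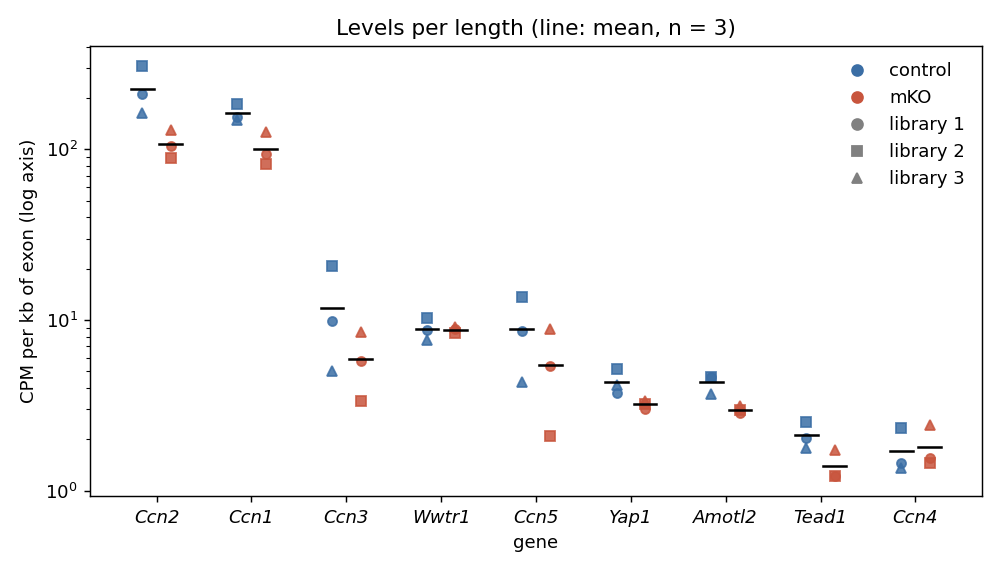
Level of each gene in CPM per kb of exon (log axis), with control libraries in blue, mKO libraries in red, 1 symbol shape per library number and the group mean as a line. Ccn2 and Ccn1 lie at 82.3 CPM per kb or more in every library, and no other gene exceeds 20.6 CPM per kb.

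Ccn2, also known as connective tissue growth factor, is a mediator of matrix production and fibrosis. It had 605.8, 876.5 and 465.3 CPM in control libraries 1 to 3 and 297.5, 254.0 and 373.2 CPM in mKO libraries 1 to 3. All mKO libraries lay below all control libraries, and control 2 was highest. The mKO mean was 47.5% of the control mean, with a log2 fold change of -1.07 (SE 0.26), which placed Ccn2 at the 1.19 percentile of fold changes over all genes tested. Without control 2 the log2 fold change of Ccn2 was -0.80. Ccn1, also known as Cyr61, supports angiogenesis and cell adhesion. It had 313.4, 373.5 and 298.7 CPM in control and 190.0, 166.1 and 255.4 CPM in mKO. These groups did not overlap either, and mKO 3 came nearest to the controls. The mKO mean was 62.0% of the control mean, with a log2 fold change of -0.69 (SE 0.19), and -0.88 (SE 0.19) without mKO 3. The ratio of Ccn2 to Ccn1 within a library was 1.93, 2.35 and 1.56 in control and 1.57, 1.53 and 1.46 in mKO, and overlapped between the groups.

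For the remaining CCN genes the groups' means differed by less than the SD of the control pools. Ccn3, which is made by smooth muscle and limits its growth, had 28.4, 59.1 and 14.3 CPM in control and 16.5, 9.65 and 24.5 CPM in mKO. Its groups overlapped, control 2 carried the highest value, and the log2 fold change of -1.01 (SE 0.61) became -0.34 without control 2. Ccn5, a member that lacks the C-terminal domain of the family, had 16.6, 26.1 and 8.39 CPM in control and 10.4, 4.02 and 17.1 CPM in mKO. The log2 fold change of Ccn5 was -0.70 (SE 0.64), again with overlap, and it ran from -1.24 without mKO 3 to -0.25 without control 2. Ccn4, induced by WNT signalling, had 8.05, 12.9 and 7.598 CPM in control and 8.600, 8.05 and 13.4 CPM in mKO. The groups overlapped almost fully for Ccn4, with a log2 fold change of 0.07 (SE 0.27), and its sign turned on leaving out control 1, control 3 or mKO 3.

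The groups separated for one coactivator and overlapped for the other. Yap1 had 34.7, 47.7 and 38.4 CPM in control and 27.8, 30.0 and 31.1 CPM in mKO, with no overlap between the groups. The mKO mean was 73.6% of the control mean (log2 fold change -0.44, SE 0.14, and -0.30 without control 2). The mKO libraries lay close together, with a coefficient of variation of 5.58% against 16.7% in control. Wwtr1, which encodes TAZ, had 41.5, 49.4 and 36.5 CPM in control and 42.4, 40.0 and 43.3 CPM in mKO. The mKO values of Wwtr1 fell inside the control range, with a log2 fold change of -0.02 (SE 0.13) that became 0.0044 with DESeq2 size factors in edgeR. Without control 2 the log2 fold change of Wwtr1 was 0.10. The Yap1 to Wwtr1 ratio of CPM, which does not depend on library size, was 0.835, 0.965 and 1.05 in control and 0.656, 0.750 and 0.719 in mKO. It was lower in every mKO library than in every control library; this ratio was chosen after the values were seen.

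Tead1, a DNA-binding partner of both coactivators, had 27.8, 34.1 and 24.0 CPM in control and 16.7, 16.6 and 23.4 CPM in mKO. The groups did not overlap, but mKO 3 lay just under control 3. The mKO mean of Tead1 was 65.9% of the control mean, with a log2 fold change of -0.60 (SE 0.18). For Tead1 this was -0.78 without mKO 3 and -0.46 without control 2. Amotl2 encodes an angiomotin-like scaffold of endothelial junctions that holds YAP out of the nucleus and is itself a YAP target. It had 29.1, 29.0 and 23.2 CPM in control and 17.96, 18.6 and 19.8 CPM in mKO, with no overlap. The mKO mean was 69.3% of the control mean, with a log2 fold change of -0.53 (SE 0.12). Within a library the ratio of Ccn1 to Tead1, also chosen after the values were seen, was 11.3, 10.9 and 12.4 in control and 11.4, 10.01 and 10.9 in mKO, which overlapped. Ccn2 to Tead1 ratios were 21.8, 25.7 and 19.4 in control and 17.9, 15.3 and 16.0 in mKO, with no overlap.

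**Figure D2:**
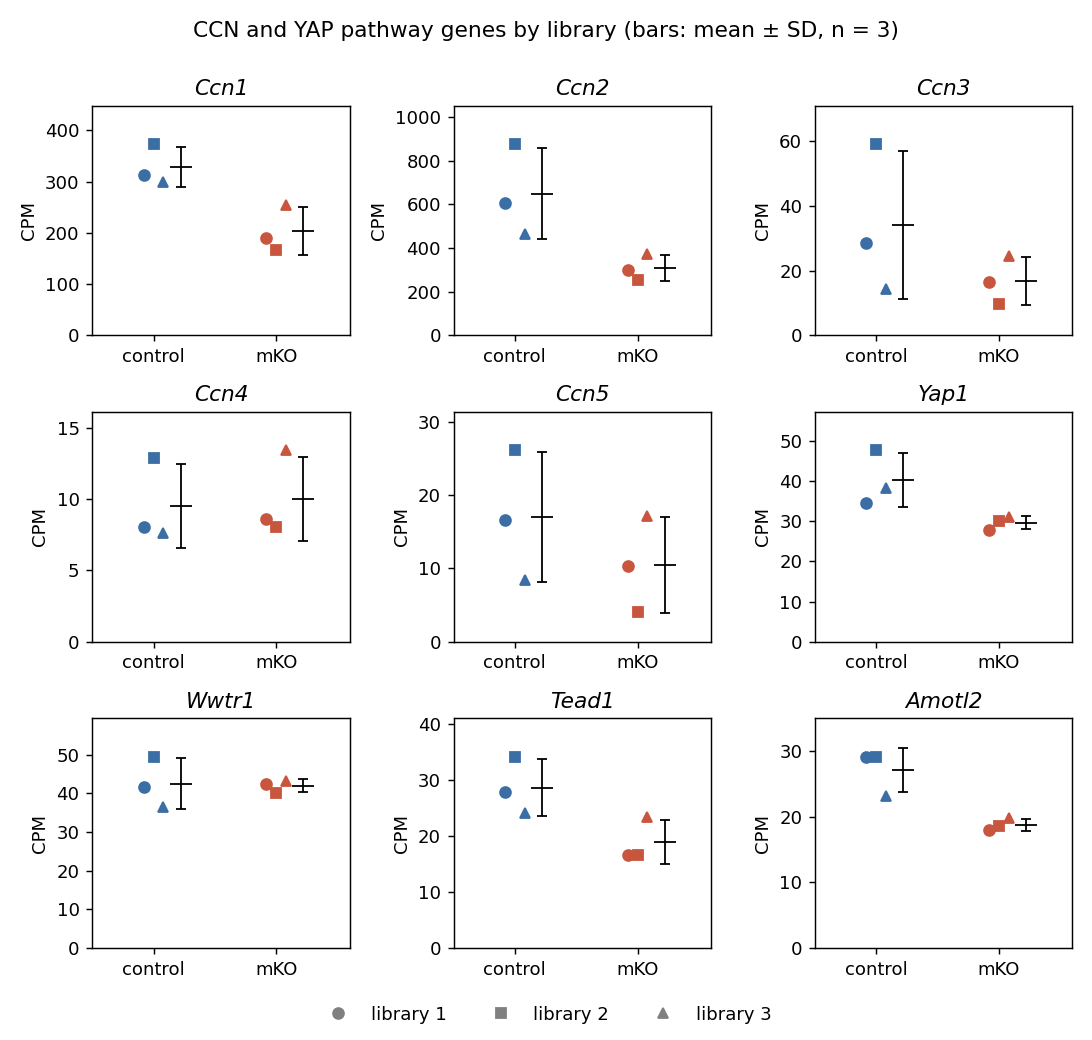
CPM of each of the 9 genes in the 3 control and 3 mKO libraries, with 1 symbol shape per library number and bars for mean ± SD (n = 3). Control and mKO do not overlap for Ccn1, Ccn2, Yap1, Tead1 and Amotl2, and they overlap for Ccn3, Ccn4, Ccn5 and Wwtr1.

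Of the 9 genes, 5 had mKO libraries that all lay below the controls and 0 had the reverse; over the 16523 genes tested, 9.39% lay below in this way and 8.76% above. The log2 fold change was below 0 for 8 of the 9 genes, with a median of -0.60 against -0.03 over all genes, of which 54.1% were below 0. No gene of the 9, and 0% of the 16523 genes tested, had an adjusted p under 0.05 by edgeR's quasi-likelihood test. At an unadjusted p under 0.05 that test counted 5 of the 9, all lower in mKO, where 1960 genes (11.9%) were counted in either direction, 6.26% as lower and 5.60% as higher. DESeq2, an alternative tool, counted Ccn1, Ccn2 and Amotl2 as lower at an adjusted p under 0.05, where 2.88% of 16195 genes were called, 1.38% as lower and 1.51% as higher. Without control 2, mKO 1 or mKO 2, DESeq2 counted Ccn2 alone, where it called 243, 555 and 497 genes in either direction. Without control 1 it counted Ccn2 and Yap1 among 767 genes called, and without control 3 Ccn2 and Amotl2 among 353. Without mKO 3 it counted Ccn1, Ccn2 and Tead1 among 312. Ccn2 was thus called in each of the 6 fits that left out 1 library. Since the genes were picked from this contrast, these shares and counts describe the set and support nothing further.

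**Figure D3:**
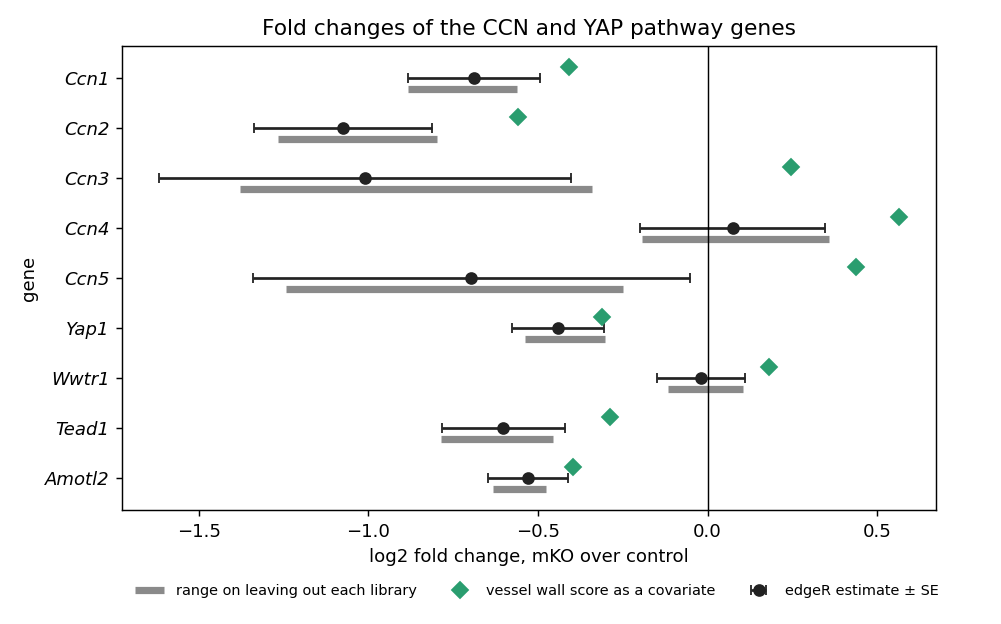
Log2 fold change of each gene, mKO over control, with edgeR's estimate ± SE (circle), the range over 6 fits that each leave out 1 library (grey bar) and the estimate with a vessel wall score as a covariate (diamond). With the covariate Ccn3, Ccn5 and Wwtr1 move from below 0 to above it, and Ccn1, Ccn2, Yap1, Tead1 and Amotl2 stay below 0.

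Markers of wall cells and of other cell types also differed between libraries, some lower and some higher in mKO. The 10 endothelial markers summed to 972.9 to 1131 CPM in control and 728.7 to 883.5 CPM in mKO, without overlap. The 10 smooth muscle markers summed to 1236 to 3107 CPM in control and 688.8 to 1513 CPM in mKO, which overlapped. All 10 had a log2 fold change below 0, with a median of -0.83. The 10 fibroblast markers summed to 667.3 to 1292 CPM in control and 585.7 to 999.4 CPM in mKO, also with overlap. Of these, 8 were below 0 and 2 above, with a median of -0.31. The 8 adipocyte markers summed to 661.5 to 806.7 CPM in control and 350.0 to 524.2 CPM in mKO, without overlap, as for endothelium. All 8 had a log2 fold change below 0. Most of that sum was Fabp4, with means of 551.5 CPM in control and 355.4 CPM in mKO. All 9 platelet markers had a log2 fold change below 0, with sums of 4379 to 6445 CPM in control and 3275 to 5061 CPM in mKO, which overlapped. All 8 erythroid markers were above 0, and 4 of them had mKO libraries wholly above the controls, as 8.76% of all genes did. Of 8 neutrophil markers 6 were above 0, 2 below and 1 wholly above the controls. Their sums were 9640 to 15805 CPM in control and 13712 to 19077 CPM in mKO, which overlapped. Of 9 macrophage and monocyte markers 7 were above 0, 2 below and 2 wholly above the controls. These summed to 1152 to 1472 CPM in control and 1299 to 1939 CPM in mKO, also with overlap. In bulk tissue fewer cells of a type and less RNA per cell cannot be told apart. A vessel wall score, the mean over the endothelial, smooth muscle and fibroblast lists of log2 CPM relative to the 6-library mean, was 0.21, 0.63 and -0.14 in control and -0.16, -0.60 and 0.06 in mKO. For 7 of the 9 genes, all except Yap1 and Amotl2, the libraries within each group stood in the same order as the wall score: control 2, 1, 3 and mKO 3, 1, 2. The share of all genes tested that stood in this order was not counted, so the order cannot be called particular to the set.

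Each gene was also set against the summed markers in the same library, a description chosen after the values were seen. A sum is weighted toward its highest markers. For endothelium these were Vwf and Pecam1, with log2 fold changes of -0.35 and -0.24. Cldn5, Emcn and Esam had -1.22, -0.49 and -0.47, and all 10 markers were below 0, up to -0.05 for Tie1. Ratios to the endothelial sum therefore hold for that sum and not for each endothelial marker. Ccn2 per endothelial marker CPM was 0.623, 0.775 and 0.470 in control and 0.408, 0.303 and 0.422 in mKO, without overlap, and Ccn1 was 0.322, 0.330 and 0.302 against 0.261, 0.198 and 0.289, also without overlap. The other 3 genes with separate groups overlapped on this base. Yap1 was 0.0356, 0.0422 and 0.0388 in control and 0.0382, 0.0358 and 0.0352 in mKO, Tead1 was 0.0285, 0.0302 and 0.0243 against 0.0229, 0.0198 and 0.0265, and Amotl2 was 0.0300, 0.0257 and 0.0234 against 0.0246, 0.0222 and 0.0224. Against smooth muscle markers Ccn2 was 0.411, 0.282 and 0.377 in control and 0.309, 0.369 and 0.247 in mKO, which overlapped, as did Ccn1. Ccn3 was 0.0193, 0.0190 and 0.0116 against smooth muscle markers in control and 0.0171, 0.0140 and 0.0162 in mKO. Against summed fibroblast markers Ccn1 and Ccn2 were again lower in every mKO library than in every control library, and against summed adipocyte or platelet markers both overlapped. Wwtr1 per endothelial marker CPM was higher in mKO, at 0.0583, 0.0477 and 0.0490 against 0.0427, 0.0437 and 0.0369. When edgeR was given the wall score as a covariate, the log2 fold change was -0.56 (SE 0.18) for Ccn2, -0.41 (SE 0.17) for Ccn1 and -0.40 (SE 0.14) for Amotl2. In the same fit it was -0.31 (SE 0.16) for Yap1 and -0.29 (SE 0.15) for Tead1, and 0.25, 0.44, 0.18 and 0.56 for Ccn3, Ccn5, Wwtr1 and Ccn4. The part of wall content in these differences was not tested beyond these values.

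**Figure D4:**
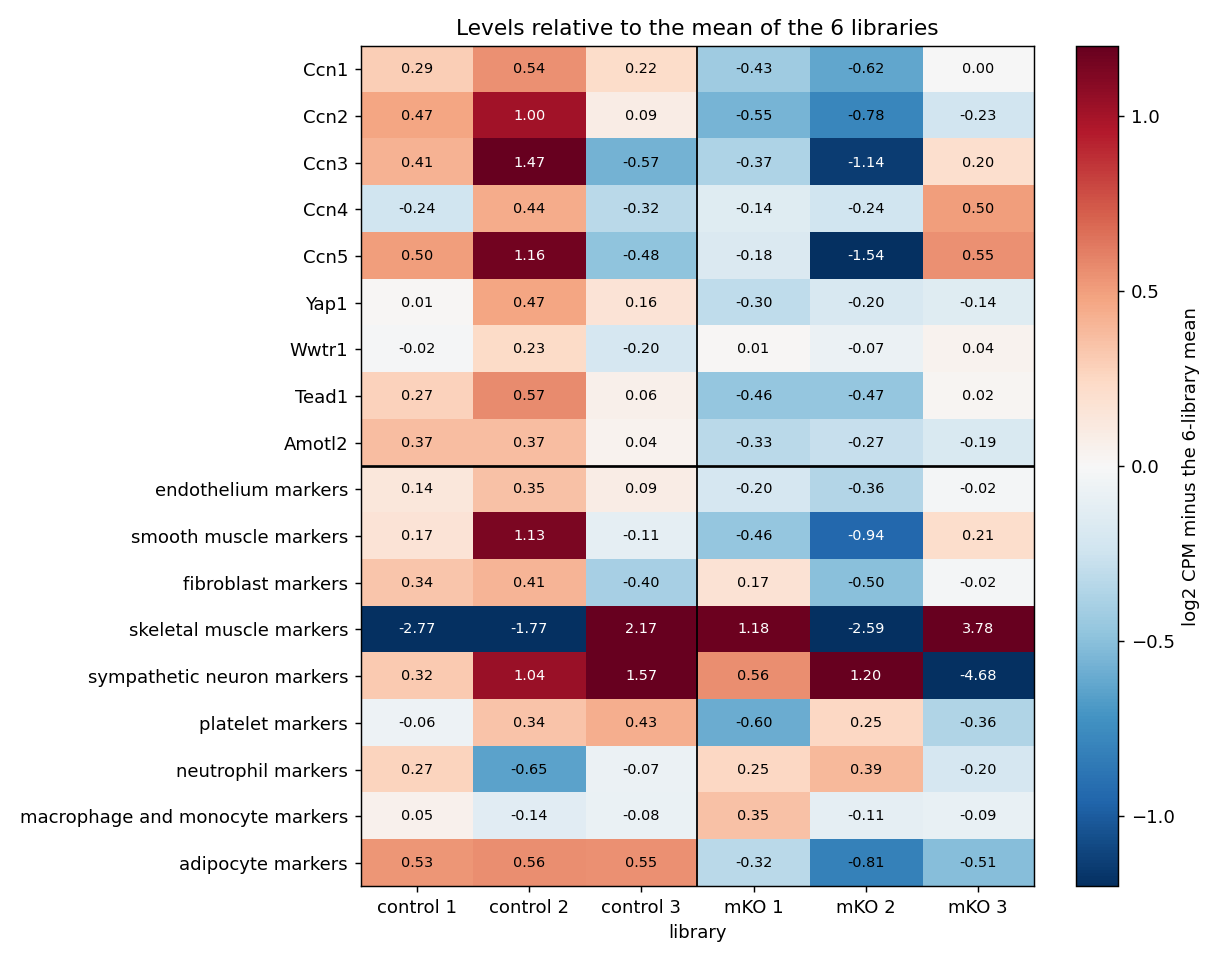
Log2 CPM of each gene (upper block) and mean of each marker list (lower block) relative to the mean of the 6 libraries, by library, with the number in each cell and colour limited to 1.2 on either side. Library control 2 is high and mKO 2 low for Ccn2, Ccn3, Ccn5 and the smooth muscle markers alike, and mKO 3 stands apart in skeletal muscle and sympathetic neuron markers.

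The rest of the pathway was read from lists of genes chosen by function. None of their genes passed an adjusted p of 0.05 by edgeR, where 0% of all genes did. Counts of genes wholly above or below the controls are to be read against 8.76% and 9.39% of all genes tested. Of 15 genes of the Hippo kinase cascade, which restrains YAP, 0 lay wholly above and 3 wholly below the controls, with a median log2 fold change of 0.04. The 3 were the scaffolds Wwc1 (KIBRA) at -0.76 (SE 0.29) and Nf2 (merlin) at -0.20 (SE 0.09), and the kinase Stk3 at -0.26 (SE 0.11), with edgeR adjusted p of 0.378, 0.445 and 0.430. Mob1a, the activator of LATS kinases, had 0.30 (SE 0.16). Another list held 10 genes, YAP and TAZ binding partners together with the upstream cadherins Fat1, Fat4 and Dchs1. Its median was -0.21 (-0.13 without control 2 and -0.35 without mKO 3), and 2 of its genes lay wholly below and 0 above. Amotl1, a relative of Amotl2, was one of them at -0.29 (SE 0.10; edgeR adjusted p 0.361). The junction protein gene Tjp1 had -0.28 (SE 0.15), or -0.44 without mKO 3, and the 14-3-3 protein gene Ywhaz had 0.13 (SE 0.14). Of 5 measured TEAD factors and cofactors, 2 lay wholly below and 0 above. These were the cofactor Vgll3 at -0.84 (SE 0.25; edgeR adjusted p 0.312) and Tead4 at -0.30 (SE 0.17; edgeR adjusted p 0.512). Tead3 had -0.67 (SE 0.29) with overlap, and Vgll4, which competes with YAP for TEAD, had 0.21 (SE 0.27). Without control 2 the values were -0.55 for Vgll3, -0.37 for Tead3 and 0.0096 for Vgll4.

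Other YAP target genes had fold changes of both signs. Of 18 measured genes of a YAP target signature, leaving out Ccn1, Ccn2 and Amotl2, 7 had a log2 fold change above 0 and 11 below, with a median of -0.18. Wholly separate groups were seen for 2 higher and 3 lower genes of the 18, where 8.76% and 9.39% of all genes were. Dock5, a Rac activator, had 29.4, 23.3 and 27.6 CPM in control and 39.0, 47.2 and 45.4 CPM in mKO, higher in 3 of 3 mKO libraries. Its log2 fold change was 0.71 (SE 0.13), which did not pass by edgeR (adjusted p 0.170) and passed by DESeq2 (adjusted p 0.000755). Nt5e, the ectonucleotidase CD73, had 0.48 (SE 0.18; edgeR adjusted p 0.364). Crim1, a transmembrane regulator of BMP factors, had -0.74 (SE 0.25; edgeR adjusted p 0.349). F3, which encodes tissue factor, the initiator of coagulation, had 23.7 to 25.4 CPM in control and 22.5 to 26.1 CPM in mKO, with a log2 fold change of 0.03 (SE 0.10); it was named after its values were seen.

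**Figure D5:**
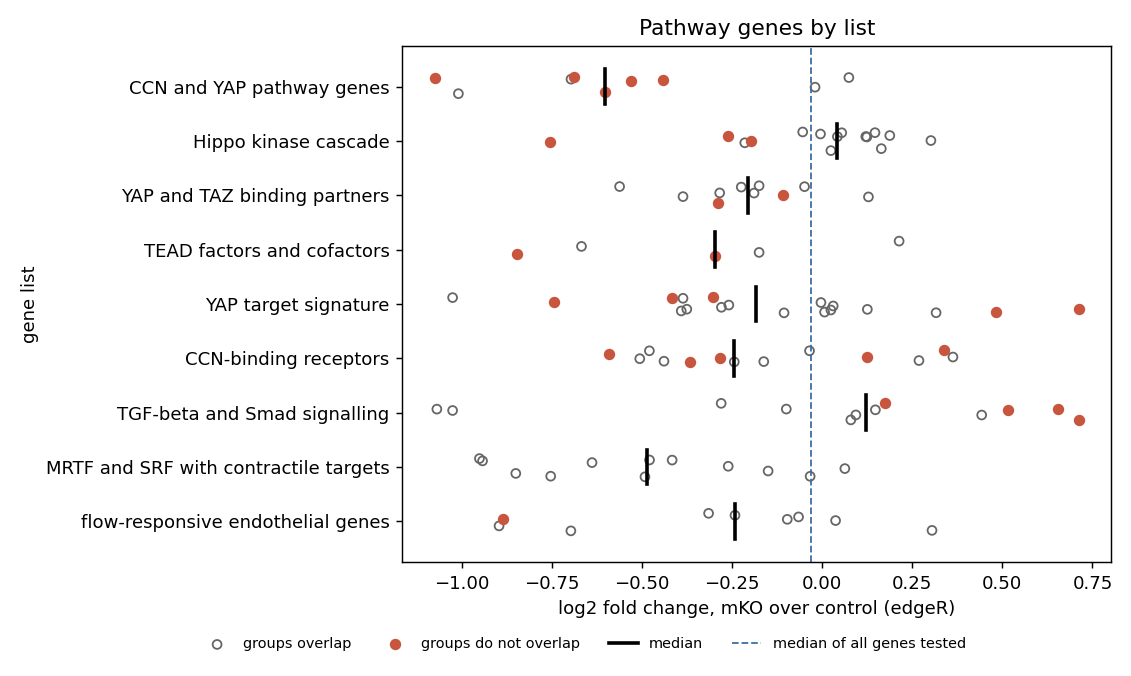
Log2 fold change of each gene, mKO over control, by list, with filled points for genes whose groups do not overlap, open points for the others, a black bar for the list median and a dashed line for the median of all genes. The list of MRTF, SRF and contractile targets has the lowest median of the 8 further lists, -0.48, and the TGF-beta list has 4 filled points above 0 and 0 below.

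CCN proteins bind integrins, syndecan 4, LRP receptors and Notch1. Of 13 such receptor genes 3 lay wholly below the controls and 2 wholly above, with a median of -0.24 that was -0.15 without control 2. Sdc4, the syndecan, had 99.5, 113.9 and 120.2 CPM in control and 83.7, 72.4 and 65.4 CPM in mKO, lower in 3 of 3 mKO libraries. Its log2 fold change was -0.59 (SE 0.14), which did not pass by edgeR (adjusted p 0.239) and passed by DESeq2 (adjusted p 0.00748). The fibronectin receptor subunits Itga5 and Itgb1 had -0.28 (SE 0.13) and -0.37 (SE 0.17), and the myeloid integrin gene Itgam had 0.36 (SE 0.25). Without control 2 Itgb1 had -0.21 and Itgam 0.17.

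TGF-beta induces Ccn2 through Smad proteins. Of 12 genes of this route 4 lay wholly above the controls and 0 below, with a median of 0.12 that was 0.073 without control 2. The receptor gene Tgfbr1 had 53.1, 50.6 and 50.3 CPM in control and 76.0, 86.4 and 90.2 CPM in mKO, higher in 3 of 3 mKO libraries. Its log2 fold change was 0.71 (SE 0.11), which did not pass by edgeR (adjusted p 0.148) and passed by DESeq2 (adjusted p 1.57e-06). Smad3, the transducer, had 32.7, 32.9 and 32.01 CPM in control and 44.0, 51.0 and 58.6 CPM in mKO, with a log2 fold change of 0.65 (SE 0.12; edgeR adjusted p 0.188; DESeq2 adjusted p 0.000635). The inhibitor Smad7 had 0.52 (SE 0.17). With the wall score as a covariate Tgfbr1 and Smad3 had 0.72 and 0.71, and leaving out each library gave 0.66 to 0.79 and 0.55 to 0.76.

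Serum response factor and its MRTF cofactors drive contractile genes and respond to mechanical load, as CCN genes do. Of 12 genes, regulators and targets together, 11 had a log2 fold change below 0 and 0 had separate groups; the gene above 0 was the cofactor Mrtfa, named after its values were seen. The median of -0.48 was -0.03 without control 2 and -0.78 without mKO 3. Tagln and Acta2, which are also smooth muscle markers above, had -0.95 (SE 0.40) and -0.94 (SE 0.45), Tpm1 had -0.49 (SE 0.24) and Flna, the filamin, had -0.15 (SE 0.20). Without control 2 these were -0.48 for Tagln, -0.39 for Acta2, -0.24 for Tpm1 and 0.014 for Flna. Of 9 endothelial genes that respond to flow, 7 were below 0, with a median of -0.24 (-0.14 without control 2), and 1 had separate groups. This was Edn1, endothelin 1, with 86.8, 79.9 and 75.9 CPM in control and 49.1, 35.0 and 47.2 CPM in mKO. Its log2 fold change was -0.88 (SE 0.15), which did not pass by edgeR (adjusted p 0.165) and passed by DESeq2 (adjusted p 6.48e-05). The connexin gene Gja5 had -0.90 (SE 0.39), Klf2, the flow-induced transcription factor, 0.30 (SE 0.15) and Thbd, thrombomodulin, 0.04 (SE 0.15).

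The genes whose log2 CPM followed each member most closely were ranked by Pearson r over the 6 libraries among 13893 other genes of at least 1 CPM; the difference between groups and the wall content of a library enter these values. For Ccn2 they were Tent5b (0.998), Lims2 (0.997) and Ttc37 (0.995), and for Ccn1 Gm9817 (0.995), Wdr43 (0.994) and Nbas (0.994). For Yap1 they were Stox2 (0.994), Rab13 (0.989) and Sardh (0.989). For Tead1 they were Ntn4 (0.998), Zcchc14 (0.993) and Dag1 (0.992), and for Amotl2 Jcad (0.992), Dhh (0.991) and Arhgef10 (0.984). The 3 nearest genes of Ccn1, Ccn2, Yap1, Tead1 and Amotl2 all had a log2 fold change below 0, from -1.80 for Gm9817 to -0.24 for Sardh. Since r was taken over both groups, that sign was largely set by the choice of genes. Ccn3 was followed by Parp3 (0.994), Erap1 (0.993) and Pkdcc (0.993), and Ccn5 by Ephb4 (0.995), Col1a2 and P3h1 (0.992 each), of which Col1a2, a chain of type I collagen, is one of the fibroblast markers. Ccn4 was followed by Foxp1 (0.990), Cdc25a (0.988) and Pdzrn3 (0.984), and Wwtr1 by, among others, Pknox2 (0.987) and AI597479 (0.986).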

How the data were processed

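The values deposited by the authors are whole-number read counts for each gene, 1 table per library. The submitters' processing notes list HISAT2 2.1.0, featureCounts 2.0.1, FastQC 0.11.8 and Trim Galore 0.4.0 together with GRCm39, without saying what each did. As to strand setting, annotation release and how the gene list was set, each was not given in the sources used here. Without strand, reads of Ccn2 and of the opposite-strand transcript Gm15270 cannot be told apart. Differences were tested with edgeR 4.0.16 under R 4.3.3: genes passed filterByExpr, TMM factors scaled the libraries, a robust quasi-likelihood model was fitted to all 16523 genes left, and p-values were adjusted by Benjamini-Hochberg with a threshold of 0.05. CPM uses TMM-scaled library sizes, and log2 CPM a prior count of 2. DESeq2 1.42.0, limma 3.58.1 voom, other scalings and filters, a replicate block, a wall covariate and leaving out each library were alternatives; counts of the set with a library left out were added after seeing the data. Exon lengths came from GENCODE M21 (GRCm38) by gene identifier. The 9 genes, the lists and the markers were chosen with earlier results of these data known. Genes named from a list are the 3 with the smallest p and the one with the highest mean over all 6 libraries, and other separate-group genes were named after seeing values. Some genes that these rules name are not reported here. No pair of libraries of the same group agreed within sampling noise. The remaining family member Ccn6 is not analysed here, nor are Vgll1, Vgll2, Foxf2 and 6 of 8 mesothelial markers.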

Additional observations from a re-analysis of the deposited data

How the results depend on the processing

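Over 15 alternatives the log2 fold changes of Ccn1, Ccn2, Yap1, Tead1 and Amotl2 were below 0, which their separate groups fix where a library is left out. With DESeq2 in place of edgeR, the adjusted p passed 0.05 for Ccn1 (-0.67), Ccn2 (-1.05) and Amotl2 (-0.51), and 467 genes were called against 0; edgeR called 0 to 7 genes on leaving out each library and 0 under every other alternative run. Leaving out each library gave -1.27 to -0.80 for Ccn2, -0.88 to -0.56 for Ccn1, -0.12 to 0.10 for Wwtr1 and -0.19 to 0.36 for Ccn4. Wwtr1 was 0.0044 with either use of DESeq2 size factors, and 0.18 with the wall covariate. With that covariate Ccn3 was 0.25 and Ccn5 0.44. The DESeq2 count of the 9 genes ranged from 1 to 3 on leaving out each library, where 243 to 767 genes were called in all. Sample numbers are shared by the groups, but deviations of same-numbered samples correlated at -0.14, -0.15 and -0.27 and no sample matched its own number best, so the numbers were not taken as pairs. With the replicate block 0 genes passed, and genes at an unadjusted p under 0.05 went from 1960 to 1299; without control 2 they were 1090. The list medians moved beyond their spread only with the wall covariate, for the YAP target (-0.01), contractile (-0.03) and flow (-0.01) lists, and without control 2, for the contractile list (-0.03). Among named list genes, signs turned on leaving out single libraries, with ranges of -0.028 to 0.43 for Vgll4, -0.050 to 0.14 for Thbd and -0.23 to 0.014 for Flna, and Vgll4 was -0.19 with the wall covariate. The scalings moved the median of all genes by less than 0.03 on the log2 scale. With 3 pools a group, the smallest p of an exact permutation test is 0.1, and precision is limited by the number of pools, not by depth.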
